A study of Mus musculus with 18 samples.

Results

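The genes described here are 44 genes of ciliated cells and of the motile axoneme, the microtubule core of a beating cilium. They were taken by symbol from a list written for this work, with earlier results of these data known, as were the other gene lists below. Shares of all genes set beside these lists therefore describe the lists and are no independent test. All 44 were found among the 27179 genes counted, and all 44 were among the 19364 genes that passed the filter on low counts. They were measured by RNA-seq in thymic epithelial cells (TEC), stromal cells on which developing T cells are selected, sorted from C57BL/6 mice that were wildtype (WT) or labelled as Kat7 knockout (KO). KAT7 is an enzyme that acetylates lysines of histones. Cells were sorted into 3 subsets: TEC of the cortex (cTEC), and TEC of the medulla split by their surface MHC class II into high (mTEChi) and low (mTEClo). With 2 genotypes this gave 6 groups of 3 libraries. Each library came from a pool of mice. WT pools 1, 2 and 3 and KO pools 4, 5 and 6 each gave 1 library of every subset, and levels below are listed in that order of pools. The labels name no treatment. The sources used here do not give the ages of the mice, the number of mice in a pool, the deleted part of Kat7, the cells in which it was deleted, or the days of sorting and sequencing. Batch and genotype therefore cannot be told apart.

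Multiciliated cells are made in steps. The geminin family regulators GMNC and multicilin (Mcidas) act with E2F factors to switch on FOXJ1, RFX factors and the machinery that multiplies centrioles, and FOXJ1 and RFX factors then drive the genes of the axoneme. In a motile axoneme, outer microtubule doublets carry dynein motors and nexin links, radial spokes reach inward to a central pair of microtubules, and the dyneins slide the doublets so that the cilium beats. The thymic medulla holds rare epithelial cells that resemble cells of other organs, ciliated cells among them, and it also expresses many tissue-restricted genes at low level in mature mTEC. In bulk libraries such as these, fewer cells of a type and less RNA per cell cannot be told apart.

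Library totals ran from 3554089 to 20054360 counts, and the WT mTEChi libraries were the shallowest (3554089 to 8445355). Levels are in CPM, which scale the counts of a gene to the size of its library. Kat7 itself ranged from 38.6 to 83.4 CPM over the 9 WT libraries, and over the 9 KO libraries from 0.765 to 4.16 CPM. The subset labels were checked against defining markers. Aire, of mature mTEC, was highest in mTEChi (1096 to 1229 CPM in WT, 633 to 703 CPM in KO), and Psmb11, of cTEC, was highest in cTEC within each genotype (142 to 278 CPM in WT, 429 to 917 CPM in KO). Ccl21a, of mTEClo, was highest in mTEClo in WT (1528 to 1576 CPM). In the KO its levels in mTEClo (303 to 691 CPM) and cTEC (111 to 356 CPM) overlapped. Markers of other cells were also present. A list of 12 thymocyte genes summed to 61.0 to 140 CPM in WT cTEC and to 261 to 418 CPM in KO cTEC. There 9 of the 12 were called higher (75%, against 22.3% of all genes). A list of macrophage and dendritic cell genes (10 genes, 9 tested) summed to 1516 to 1573 CPM in WT mTEChi and 824 to 976 CPM in KO mTEChi, mostly Lyz2. In KO mTEChi 6 were called lower and 1 higher (66.7% and 11.1%, against 19.3% and 17.1% of all genes). The fibroblast, mural and endothelial list (12 genes, 10 tested) summed to 1049 to 1188 CPM in WT cTEC and 2042 to 2227 CPM in KO cTEC, mostly Dcn. In KO cTEC 6 were called lower and 1 higher (60% and 10%, against 26.7% and 22.3% of all genes). Of its endothelial genes, Cdh5 and Kdr were at or near 0 in every group and did not pass the filter on low counts, while Pecam1 passed it. The part of these cells in the results below was not tested.

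In WT, most of the ciliated cell genes were highest in mTEChi. By mean CPM, 33 of the 44 were highest in mTEChi, 10 in mTEClo and 1 in cTEC. The shares of all genes by highest subset were not counted, so these numbers describe the members only. Against mTEClo, 21 were called in WT mTEChi (59.3% of all genes tested were), 16 higher and 5 lower, where 32.6% and 26.7% of all genes were called higher and lower. The share of members called higher was thus near that of all genes, and the share called lower was below it. The median log2 difference was 0.88 over the 44 and 0.08 over all genes tested. Against cTEC, 31 were called (64.4% of all genes), 30 higher in WT mTEChi and 1 lower (35.9% and 28.5%), and the median log2 difference over the 44 was 1.51 against 0.13 over all genes tested. WT mTEClo against WT cTEC gave 17 calls (27.4% of all genes), 14 higher and 3 lower (13% and 14.4%). The filter on low counts was itself passed in WT mTEChi: the 3 WT mTEChi libraries were at or above its 0.75 CPM for all 44 genes, against 28 genes in WT cTEC and 15 in KO cTEC. Levels per transcript length spread widely. In WT mTEChi, on the scale of CPM per kilobase of counted gene length (RPKM), Tppp3 was at 76.5 ± 8.45, Dynlrb2 at 46.5 ± 11.4, Rsph9 at 25.1 ± 1.47 and Rsph1 at 16.2 ± 2.23 (mean ± SD, n = 3). These 4 differed from one another by more than their SD, while Ccno, the next at 15.1 ± 1.45 RPKM, lay within the SD of Rsph1. The lowest mean was that of Dnah11, at 0.4999 ± 0.180 RPKM, which did not differ beyond its SD from Cfap43 at 0.544 ± 0.0769 and Cfap54 at 0.567 ± 0.114 RPKM.

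In the KO, most called ciliated cell genes were lower in mTEChi and in cTEC, and calls went both ways in mTEClo. In KO against WT mTEChi, 28 of the 44 were called (36.4% of all genes tested were). Of these 27 fell and 1 rose, where 19.3% and 17.1% of all genes tested were called lower and higher. The median log2 fold change was -1.60 over the 44 and -0.11 over all genes. The fitted change was below 0 for 42 of the 44, and for 10831 of the 19364 genes tested. In mTEClo, 10 were called (34.7% of all genes), of which 6 fell and 4 rose (15.8% and 18.9%), with a median of -0.47 against 0.01. The mTEClo count depended on the fit: 10 fell by DESeq2 and 13 with only the mTEClo libraries fitted, while 4 and 6 rose. In cTEC, 29 were called (49% of all genes), of which 25 fell and 4 rose (26.7% and 22.3%), with a median of -1.67 against -0.02. That cTEC median was also -1.67 with Spag16, which had no reads in KO cTEC, at its bound. Counted by library, all 3 KO libraries lay below all 3 WT libraries for 34 genes in mTEChi (31.4% of all genes did so), for 18 in mTEClo (22.5%) and for 19 in cTEC (25.5%). The libraries lay the other way for 2, 7 and 4 genes (24.5%, 26.8% and 25.5% of all genes). In the KO the highest subset by mean CPM was mTEClo for 26 of the 44 genes, mTEChi for 16 and cTEC for 2. The shares of all genes by highest subset were not counted here either. In KO mTEChi against KO mTEClo, 19 were called (45.3% of all genes), 8 higher and 11 lower (23% and 22.4%). Against KO cTEC, 30 were called in KO mTEChi (62.4% of all genes), 27 higher and 3 lower (34% and 28.4%), and 29 in KO mTEClo (37% of all genes), 28 higher and 1 lower (21.2% and 15.8%).

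By gene, 33 of the 44 fell in at least 1 subset, 5 rose in at least 1 (Drc1, Hydin, Ropn1l, Rsph9 and Tppp3), and 9 were called in none (Cfap57, Cfap61, Cfap70, Dnah9, Dnah11, Gmnc, Rfx3, Rsph4a and Tekt4). The genes that fell in both mTEChi and cTEC numbered 19. Of these, 3 also fell in mTEClo (Dnah12, Spag17 and Tmem212), 1 rose there (Drc1), and 15 were not called. The shares of all genes with these patterns over several subsets were not counted, so the numbers describe the members only. In single subsets 36.4%, 34.7% and 49% of all genes were called in mTEChi, mTEClo and cTEC. Tppp3 was called higher in all 3 subsets. Of these calls, 8 of 28 in mTEChi, 3 of 10 in mTEClo and 6 of 29 in cTEC were lost when some 1 of the 6 libraries was left out. In mTEChi, Deup1, Tekt1 and Cfap52 lost the call whichever library was left out (adjusted p from 0.0529 to 0.107), while the log2 change was -1.99 to -1.87 in Deup1 (-1.93 with all libraries), -1.99 to -1.65 in Tekt1 (-1.79) and -1.59 to -1.41 in Cfap52 (-1.53). Ak7 and Drc1 lost it in 5 of 6 cases (adjusted p 0.0505 to 0.176), at -1.92 to -1.59 and -1.03 to -0.79, and Cfap44 and Tekt2 in 2 cases each (0.0505 to 0.0658), at -1.32 to -1.32 and -1.56 to -1.51.

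The promoters of 38 of the 44 genes were in the RefSeq table used (GRCm38.p6), as windows from 250 bases before to 50 bases after the start of transcription. They are shown for 4 genes because RFX factors, which drive axoneme genes, bind sequences built around GTTGCC. That core, searched on both strands, was present in a window of 16 of the 38 genes (42.1%) and of 3821 of 27025 genes in the table (14.1%). The forkhead sequence TGTTTAC, searched on both strands, was in 2 of the 38 (5.26%) against 4.05% of all genes. GTTNCC followed by GGNAAC with 0 to 3 bases between, which overlaps the first motif, was in 0 of the 38 and in 0.936% of all genes. Pairs that differ from these letters at the fixed places were not searched, so this count does not show that the windows lack paired sites. Mcidas and Tekt1 (both lower in KO mTEChi and cTEC), Spag16 (the largest fall in KO mTEChi, and without reads in KO cTEC) and Hydin (higher in KO mTEClo and cTEC) each held the core, which is in capitals below as GTTGCC or, on the other strand, GGCAAC.
Mcidas: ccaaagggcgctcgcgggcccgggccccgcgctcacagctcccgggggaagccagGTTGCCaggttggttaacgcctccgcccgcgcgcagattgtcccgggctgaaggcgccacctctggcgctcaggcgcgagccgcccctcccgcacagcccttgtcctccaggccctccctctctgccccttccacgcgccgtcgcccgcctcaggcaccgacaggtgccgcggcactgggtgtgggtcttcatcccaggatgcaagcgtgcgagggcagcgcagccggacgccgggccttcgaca
Tekt1: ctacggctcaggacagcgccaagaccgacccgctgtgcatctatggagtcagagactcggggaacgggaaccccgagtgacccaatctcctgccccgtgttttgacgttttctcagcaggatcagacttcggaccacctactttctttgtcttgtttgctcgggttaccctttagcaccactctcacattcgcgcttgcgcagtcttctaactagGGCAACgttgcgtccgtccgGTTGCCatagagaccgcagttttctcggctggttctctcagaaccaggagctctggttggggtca
Spag16: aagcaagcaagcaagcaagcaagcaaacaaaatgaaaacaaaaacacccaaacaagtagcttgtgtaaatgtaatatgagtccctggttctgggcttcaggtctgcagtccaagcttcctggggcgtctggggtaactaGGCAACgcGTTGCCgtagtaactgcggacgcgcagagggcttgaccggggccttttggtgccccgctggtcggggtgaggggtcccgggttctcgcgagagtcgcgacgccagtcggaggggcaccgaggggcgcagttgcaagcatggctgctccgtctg
Hydin: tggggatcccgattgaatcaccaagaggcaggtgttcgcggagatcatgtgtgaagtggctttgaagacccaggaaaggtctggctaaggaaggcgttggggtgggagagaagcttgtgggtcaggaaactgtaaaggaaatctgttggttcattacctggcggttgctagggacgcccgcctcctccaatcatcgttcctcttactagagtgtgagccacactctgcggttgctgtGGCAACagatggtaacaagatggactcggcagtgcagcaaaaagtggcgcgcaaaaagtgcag
These windows, written 5′ to 3′ in the direction of the gene, lie at chr13:112993618-112993917 (plus strand), chr11:72361833-72362132 (minus strand), chr1:69826720-69827019 (plus strand) and chr8:110266727-110267026 (plus strand). Tekt1 has a second listed start whose window held no match. Relative to the start, with minus for bases before it, the first base of the core lay at -195 in Mcidas, at -35 and -15 in Tekt1, at -111 and -103 in Spag16 and at -13 in Hydin. Of the 16 genes with the core, 12 fell in KO mTEChi, 2 in mTEClo and 8 in cTEC. Of the 22 genes with a window and no core, 11, 4 and 13 fell. A match describes letters in the window and says nothing of whether a factor bound there.

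Among the 5 regulators of the multiciliated fate, Mcidas and Foxj1 fell in mTEChi and cTEC, Rfx2 fell in cTEC, and Gmnc and Rfx3 were called in no subset. Mcidas (multicilin) was at 22.7, 27.0 and 24.3 CPM in the WT mTEChi libraries and at 6.69, 6.60 and 4.86 CPM in the KO libraries. Every KO mTEChi library was below every WT library (log2 change -2.02 with SE 0.38, adjusted p = 0.000461). Mcidas was less abundant elsewhere, at 2.91, 1.86 and 6.18 CPM in WT cTEC against 0.924, 0.647 and 0.473 CPM in KO cTEC. These groups did not overlap either (log2 change -2.43 with SE 0.45, adjusted p = 0.000165). In mTEClo it was at 0.613, 2.46 and 1.49 CPM in WT and 1.83, 1.69 and 2.498 CPM in KO, and the groups overlapped (log2 change 0.44 with SE 0.46, adjusted p = 0.494). Foxj1, which encodes the transcription factor that drives motile cilium genes, was at 29.3, 12.5 and 24.3 CPM in WT mTEChi and 2.39, 9.94 and 15.02 CPM in KO mTEChi. WT pool 2 lay below KO pool 6, so these groups overlapped (log2 change -1.26 with SE 0.47, adjusted p = 0.0403). The call was lost without WT pool 1, WT pool 3, KO pool 4 or KO pool 5, with log2 change -1.32 to -0.79, adjusted p between 0.077 and 0.157. In cTEC Foxj1 was at 11.2, 4.93 and 15.3 CPM in WT and 4.03, 3.04 and 3.37 CPM in KO, without overlap (log2 change -1.59 with SE 0.47, adjusted p = 0.00866). In mTEClo it was at 6.95, 5.05 and 9.07 CPM in WT and 8.05, 13.6 and 13.4 CPM in KO, which overlapped and gave no call (log2 change 0.74 with SE 0.47, adjusted p = 0.234).

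Gmnc, which acts upstream of multicilin, was almost confined to mTEChi, at 17.4, 13.9 and 13.2 CPM in WT and 8.37, 7.74 and 7.21 CPM in KO. All 3 KO mTEChi libraries were below the WT libraries, but the change did not pass the test (log2 change -0.92 with SE 0.54, adjusted p = 0.188). In the 12 mTEClo and cTEC libraries Gmnc was at most 1.01 CPM. The Gmnc level in WT mTEChi against WT mTEClo differed by a log2 of 6.40 (SE 0.84, adjusted p = 2.1e-06). Rfx3, an RFX factor of many ciliated cells, was highest in mTEClo, at 24.3, 31.2 and 29.9 CPM in WT and 31.9, 34.7 and 33.9 CPM in KO. It was at 12.2, 14.1 and 12.9 CPM in WT against 16.7, 16.5 and 15.8 CPM in KO mTEChi, and at 9.97, 19.0 and 23.5 CPM in WT against 19.9, 19.0 and 16.1 CPM in KO cTEC. The KO libraries lay just above the WT libraries in both mTEC subsets, and no subset gave a call (log2 fold change 0.31, 0.24 and 0.06 in mTEChi, mTEClo and cTEC). Rfx2, a second RFX factor, was at 6.92, 8.20 and 9.08 CPM in WT against 7.65, 5.69 and 7.07 CPM in KO mTEChi and at 11.2, 12.8 and 10.1 CPM in WT against 12.2, 11.0 and 8.51 CPM in KO mTEClo, all overlapping. In cTEC it was at 9.90, 13.3 and 9.80 CPM in WT and 4.22, 7.57 and 8.73 CPM in KO, a fall (log2 change -0.68 with SE 0.24, adjusted p = 0.0256) that was lost without WT pool 2 or KO pool 4 (log2 change -0.52 to -0.44, adjusted p = 0.112 and 0.136).

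**Figure D1:**
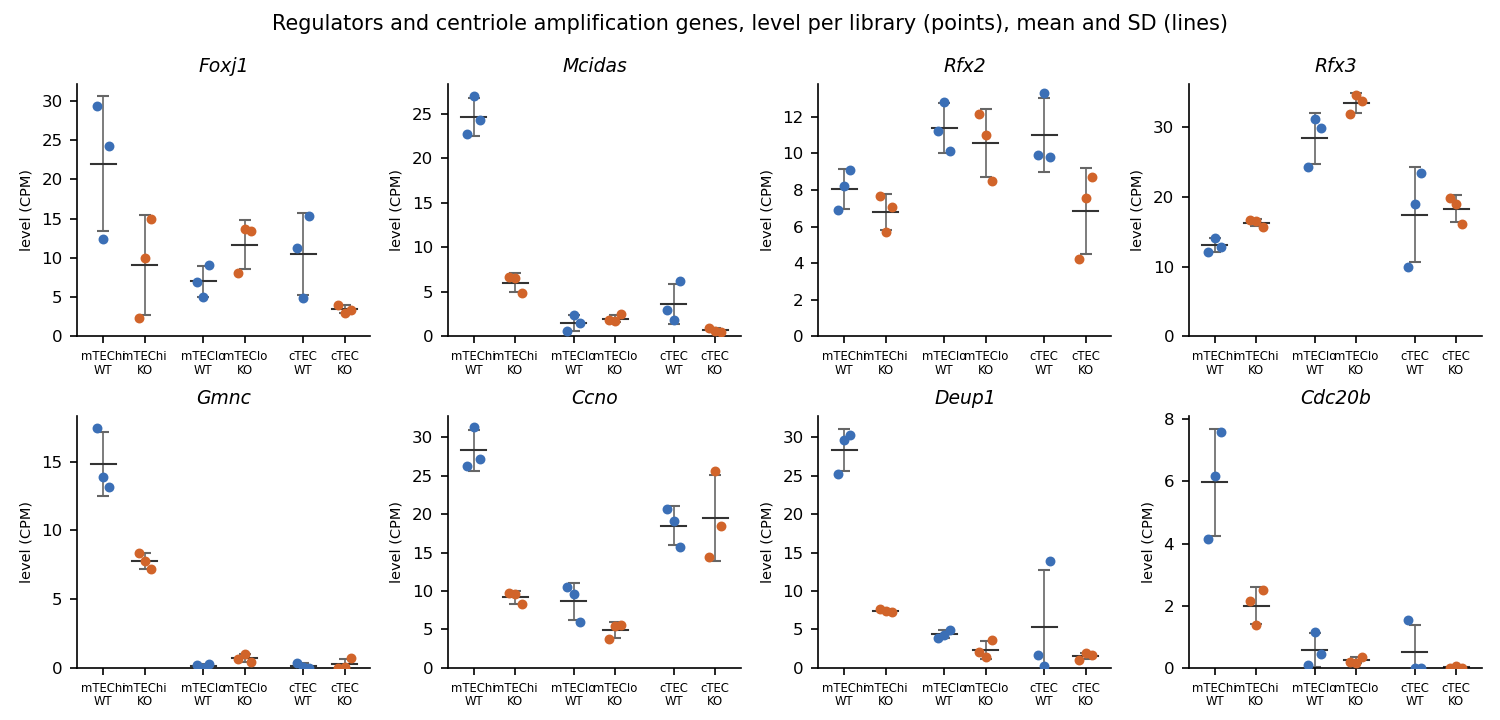
Level (y axis, CPM, starting at 0) of the 5 regulators and 3 centriole amplification genes in the 18 libraries (points, blue WT and orange KO), with the mean and SD of each group of 3 (lines). Mcidas, Gmnc, Ccno and Deup1 in mTEChi have every KO point below every WT point, while Rfx2 overlaps between genotypes in both mTEC subsets and the KO points of Rfx3 lie just above the WT points there.

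Of the 3 genes for centriole amplification, Ccno and Deup1 fell in mTEChi (66.7%, against 19.3% of all genes). Ccno, a cyclin-like protein that multiciliated cells need to make centrioles, was at 26.3, 31.4 and 27.1 CPM in WT mTEChi and 9.68, 9.56 and 8.24 CPM in KO mTEChi. The groups were well apart (log2 change -1.62 with SE 0.23, adjusted p = 3.3e-05). In mTEClo, Ccno was at 10.5, 9.58 and 5.95 CPM in WT and 3.79, 5.46 and 5.61 CPM in KO, again without overlap (log2 change -0.82 with SE 0.24, adjusted p = 0.0125). Leaving out WT pool 1, WT pool 2 or KO pool 4 ended this call (log2 change -0.73 to -0.65, adjusted p 0.0555 to 0.0758). In cTEC, Ccno was at 20.6, 19.2 and 15.7 CPM in WT against 14.5, 25.6 and 18.5 CPM in KO, overlapping and not called (log2 change 0.08 with SE 0.22, adjusted p = 0.79). Deup1, the scaffold of the deuterosome on which new centrioles form, was at 25.2, 29.6 and 30.2 CPM in WT mTEChi and 7.65, 7.44 and 7.21 CPM in KO mTEChi. Its groups were far apart in mTEChi, yet the fitted SE was wide (log2 change -1.93 with SE 0.68, adjusted p = 0.0319). WT cTEC pool 3 stood out for Deup1, at 13.9 CPM against 1.67 and 0.212 CPM in WT pools 1 and 2. KO cTEC was at 1.06, 1.88 and 1.68 CPM. In mTEClo, Deup1 was at 3.88, 4.27 and 4.91 CPM in WT against 2.03, 1.41 and 3.62 CPM in KO, with no call in either subset (adjusted p = 0.0508 and 0.392). Cdc20b, a gene of multiciliated cells that hosts the miR-449 microRNAs, was at 4.15, 6.18 and 7.59 CPM in WT mTEChi and 2.15, 1.37 and 2.503 CPM in KO mTEChi. Its KO libraries were all lower there without a call (log2 change -1.61 with SE 0.85, adjusted p = 0.146). In cTEC it had 21 reads in WT, all in pool 1, and 1 read in KO, a pooled level 20.3-fold lower (95% counting interval 3.26 to 839). That cTEC call rested on WT pool 1, without which the log2 fold change was 1.59 with an adjusted p of 0.437. In mTEClo, Cdc20b was at 0.102, 1.17 and 0.446 CPM in WT and 0.203, 0.169 and 0.357 CPM in KO. Cdc20b overlaps Gpx8 and Gzma on the genome by whole gene spans, introns included, and the library kit does not record strand. Part of its reads might therefore not be told apart from theirs, but overlap of exons was not tested. Ccno, Mcidas and Cdc20b are neighbours on chromosome 13, within 133218 bases.

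The 6 dynein heavy chains, the motor subunits of the dynein arms, split into members that fell and members that did not. In mTEChi 3 fell (50%, against 19.3% of all genes), in mTEClo 1 (16.7% against 15.8%) and in cTEC 4 (66.7% against 26.7%). Dnah5, a heavy chain of the outer arm, was at 8.86, 11.5 and 13.3 CPM in WT mTEChi and 5.498, 1.97 and 1.91 CPM in KO mTEChi (log2 change -1.87 with SE 0.50, adjusted p = 0.00667). In cTEC it was at 8.88, 3.82 and 1.81 CPM in WT and 0.462, 0.0647 and 0.105 CPM in KO (log2 change -4.48 with SE 0.66, adjusted p = 1.41e-05). Neither pair of groups overlapped, and the same held in mTEClo (14.8, 9.84 and 19.3 against 8.86, 8.05 and 8.31 CPM), where it was not called (adjusted p = 0.173). Dnah2, of an inner arm, was at 25.2, 21.3 and 29.1 CPM in WT mTEChi and 9.44, 8.35 and 10.6 CPM in KO mTEChi, a non-overlapping fall (log2 change -1.42 with SE 0.32, adjusted p = 0.00221). In mTEClo it was at 2.76, 7.77 and 9.07 CPM in WT against 6.63, 5.91 and 4.95 CPM in KO. In cTEC it was at 7.79, 4.40 and 10.1 CPM in WT against 3.96, 4.73 and 4.05 CPM in KO, and the cTEC call (log2 change -0.81 with SE 0.32, adjusted p = 0.0459) was lost when any library but WT pool 2 was left out (log2 change -0.89 to -0.51, adjusted p 0.0675 to 0.217). The other outer arm chains were not called in any subset. Dnah9 was at 35.7, 36.7 and 27.9 CPM in WT mTEChi and 33.8, 30.7 and 21.9 CPM in KO mTEChi, with overlap (log2 change -0.21 with SE 0.26, adjusted p = 0.546). Dnah11 was higher in WT mTEClo (15.02, 14.9 and 26.0 CPM) and WT cTEC (19.6, 14.6 and 10.8 CPM) than in WT mTEChi (9.69, 4.63 and 6.78 CPM). Its KO levels were 5.26, 7.67 and 3.09 CPM in mTEChi, 12.5, 10.3 and 10.3 CPM in mTEClo and 10.4, 9.32 and 12.04 CPM in cTEC, and it was called in none (adjusted p = 0.518, 0.0546 and 0.162). In mTEClo every KO library of Dnah11 was below every WT library (log2 change -0.75). Dnah9 in mTEClo (12.4, 14.9 and 12.8 against 18.9, 11.3 and 14.4 CPM) and cTEC (15.9, 12.8 and 13.1 against 14.9, 8.22 and 6.10 CPM) also overlapped. Of the other heavy chains, Dnah12 fell in all 3 subsets (log2 fold change -2.18, -1.39 and -3.47 in mTEChi, mTEClo and cTEC), the mTEClo call being lost without WT pool 2, WT pool 3, KO pool 4 or KO pool 6 (log2 change -1.37 to -1.24, adjusted p 0.0658 to 0.0983). Dnah6 fell in cTEC (-2.47, adjusted p = 0.000163), with -0.23 in mTEChi, where it was not called.

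All 4 genes for the spacing, linking and assembly of dyneins fell in cTEC (26.7% of all genes did), 3 of them in mTEChi (75%, against 19.3% of all genes). Zmynd10, a cytoplasmic factor that helps to assemble dynein arms, was at 16.6, 15.9 and 16.0 CPM in WT mTEChi and 3.82, 2.43 and 3.09 CPM in KO mTEChi (log2 change -2.39 with SE 0.42, adjusted p = 0.000251). In cTEC it was at 3.49, 1.80 and 6.07 CPM in WT and 0.660, 0.0647 and 0.578 CPM in KO (log2 change -3.08 with SE 0.49, adjusted p = 3.13e-05). Its KO libraries lay below the WT libraries in every subset, mTEClo included (4.49, 3.76 and 3.42 against 3.04, 2.42 and 2.14 CPM, adjusted p = 0.265). Ccdc39 and Ccdc40 form the ruler that sets the repeat of the axoneme. Ccdc39 was at 3.60, 9.74 and 7.59 CPM in WT mTEChi and 1.55, 2.505 and 1.47 CPM in KO mTEChi (log2 change -1.92 with SE 0.43, adjusted p = 0.00182), and at 3.35, 3.66 and 2.61 CPM in WT against 0.726, 0.453 and 1.58 CPM in KO cTEC (log2 change -1.76 with SE 0.43, adjusted p = 0.00197). Its groups were apart in these subsets and in mTEClo (3.98, 5.44 and 7.44 against 2.70, 2.99 and 2.70 CPM, adjusted p = 0.0595), with the reservation that it overlaps the abundant Ttc14. Ccdc40 was at 6.92, 5.70 and 4.88 CPM in WT against 3.82, 2.81 and 1.91 CPM in KO mTEChi (not called, adjusted p = 0.14) and at 5.53, 0.743 and 5.32 CPM in WT against 0.528, 1.29 and 1.104 CPM in KO cTEC (log2 change -1.96 with SE 0.53, adjusted p = 0.00491). WT pool 2 was the low WT library in cTEC and made the groups overlap. In mTEClo, Ccdc40 was at 3.37, 3.76 and 1.93 CPM in WT against 3.85, 3.66 and 2.70 CPM in KO. Drc1, a subunit of the nexin link, differed by subset. It was at 11.9, 15.4 and 9.08 CPM in WT and 6.10, 5.77 and 6.04 CPM in KO mTEChi (log2 change -1.03 with SE 0.38, adjusted p = 0.038), and at 4.51, 1.49 and 5.16 CPM in WT against 1.32, 1.29 and 0.421 CPM in KO cTEC (log2 change -1.89 with SE 0.42, adjusted p = 0.00094). In mTEClo the order was turned, with 4.60, 3.24 and 3.57 CPM in WT and 8.79, 9.63 and 8.36 CPM in KO (log2 change 1.22 with SE 0.38, adjusted p = 0.0174). None of these pairs overlapped, and the mTEClo call was lost without WT pool 2 or 3 (adjusted p = 0.0664 and 0.0597).

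The 6 radial spoke genes, whose products carry signals from the central pair to the dyneins, gave 3 that fell in mTEChi (50%, against 19.3% of all genes). In cTEC 2 fell and 2 rose (33.3% each, against 26.7% and 22.3%), which is near the shares of all genes. Rsph1 and Rsph9 encode proteins of the spoke head. Rsph1 was at 20.8, 15.9 and 19.9 CPM in WT mTEChi and 4.42, 5.84 and 3.83 CPM in KO mTEChi (log2 change -1.97 with SE 0.34, adjusted p = 0.000206), and at 4.51, 3.18 and 8.73 CPM in WT against 0.858, 1.29 and 0.421 CPM in KO cTEC (log2 change -2.70 with SE 0.39, adjusted p = 1.11e-05). It stayed at overlapping levels in mTEClo, 11.2, 15.3 and 13.5 CPM in WT against 9.74, 13.6 and 14.7 CPM in KO (log2 change -0.07 with SE 0.31, adjusted p = 0.894). Rsph9 was at 25.2, 22.7 and 22.9 CPM in WT mTEChi and 10.8, 10.8 and 9.42 CPM in KO mTEChi (log2 change -1.18 with SE 0.16, adjusted p = 1.45e-05). In mTEClo it was higher in the KO, at 29.7, 34.1 and 33.8 CPM against 24.4, 18.0 and 21.4 CPM (log2 change 0.61 with SE 0.15, adjusted p = 0.00296), and in cTEC at 11.3, 11.5 and 9.67 CPM against 8.51, 7.59 and 7.29 CPM (log2 change 0.47 with SE 0.15, adjusted p = 0.0144). The 3 pairs did not overlap, the cTEC call was lost without KO pool 5 (adjusted p = 0.0555), without scaling beyond the library total (0.0567) and with only the cTEC libraries fitted (log2 change 0.43, adjusted p = 0.141), and Rsph9 overlaps the more abundant Mrps18a over 6871 bases. Ropn1l, a spoke stalk protein, was at 6.65, 7.13 and 7.05 CPM in WT mTEChi and 1.43, 2.73 and 2.65 CPM in KO mTEChi (log2 change -1.60 with SE 0.35, adjusted p = 0.00144). In cTEC it rose from 0.728, 0.477 and 1.01 CPM to 2.71, 2.14 and 1.52 CPM (log2 change 1.50 with SE 0.36, adjusted p = 0.00193), and in mTEClo it overlapped (3.47, 3.63 and 2.83 CPM in WT against 2.84, 3.15 and 3.31 CPM in KO). Cfap206, which docks spokes and dyneins, was at 5.81, 6.65 and 4.88 CPM in WT against 2.15, 2.28 and 0.883 CPM in KO mTEChi, apart but not called (adjusted p = 0.0714). In cTEC it was at 2.18, 0.106 and 5.91 CPM in WT against 0.132, 0.259 and 0.0526 CPM in KO (log2 change -4.17 with SE 0.89, adjusted p = 0.00066), with WT pool 2 at the KO level, and in mTEClo at 2.35, 2.46 and 1.49 CPM in WT against 1.22, 1.30 and 1.12 CPM in KO. Rsph4a, also of the spoke head, and Cfap61 were called in none of the subsets (log2 fold change -0.87 and -0.77 in mTEChi).

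The central pair genes held the largest called fall of the 44 genes in mTEChi (Spag16) and in mTEClo (Cfap46), and the largest rise in mTEClo and cTEC (Hydin). Spag16 and Spag17, scaffold proteins of the central pair, were expressed at low level. Spag16 was at 4.43, 3.45 and 4.203 CPM in WT mTEChi and 0.598, 0.304 and 0.442 CPM in KO mTEChi (log2 change -3.17 with SE 0.62, adjusted p = 0.000815), the largest fall among the 44 genes in that subset. In cTEC it had 58 reads in WT (1.16, 0.477 and 1.76 CPM) and none in the 3 KO libraries, at least 18.7-fold lower when its KO group is set to 3 reads. In mTEClo it was at 1.74, 1.17 and 0.744 CPM in WT against 0.608, 0.732 and 0.255 CPM in KO, apart but not called (adjusted p = 0.119). Spag17 fell in all 3 subsets, with a log2 change of -2.62 (SE 0.43, adjusted p = 0.000128) in mTEChi, -1.74 in mTEClo and -2.83 in cTEC. Its gene span overlaps that of the more abundant Wdr3 over 5143 bases. Cfap69 was at 5.54, 5.70 and 7.999 CPM in WT against 1.20, 1.90 and 0.589 CPM in KO mTEChi (log2 change -2.32 with SE 0.60, adjusted p = 0.00539) and at 1.53, 2.18 and 0.692 CPM in WT against 0.0660, 1.04 and 0.263 CPM in KO cTEC. The cTEC groups overlapped, and that call (log2 change -1.68 with SE 0.63, adjusted p = 0.0341) was lost without WT pool 1, WT pool 2, KO pool 4 or KO pool 6 (log2 change -1.65 to -1.21, adjusted p 0.0549 to 0.144). Cfap69 in mTEClo was at 3.58, 3.11 and 4.16 CPM in WT against 1.08, 2.82 and 1.38 CPM in KO. Cfap46, also of the central pair, was at 3.60, 3.92 and 4.07 CPM in WT against 1.55, 0.683 and 0.589 CPM in KO mTEChi (log2 change -2.04 with SE 0.55, adjusted p = 0.00698). It had the largest fitted fall of the 44 genes in mTEClo, from 0.919, 0.648 and 1.04 CPM to 0.135, 0.169 and 0.204 CPM (log2 change -2.28 with SE 0.65, adjusted p = 0.00957). That fall rests on few reads: all 3 libraries of Cfap46 reached the 0.75 CPM of the filter only in WT mTEChi, against 2 in WT mTEClo and 0 in KO mTEClo. Cfap46 was nearly absent from cTEC (0.146, 0.159 and 0.106 CPM in WT against 0, 0.194 and 0.105 CPM in KO). Cfap70 was called in none: it was at 2.77, 5.94 and 4.61 CPM in WT against 2.15, 2.05 and 1.18 CPM in KO mTEChi, 4.19, 2.33 and 5.21 CPM in WT against 3.31, 3.77 and 3.06 CPM in KO mTEClo and 2.04, 0.849 and 7.77 CPM in WT against 2.57, 2.85 and 2.68 CPM in KO cTEC. Cfap54 fell in mTEChi (-1.95) and cTEC (-1.95).

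Hydin, a very large protein of the central pair whose loss causes hydrocephalus in mice, went the other way from most of these genes. In mTEChi it was at 9.41, 11.0 and 9.08 CPM in WT and 8.61, 11.0 and 8.83 CPM in KO, with overlapping groups (log2 change -0.05 with SE 0.26, adjusted p = 0.889). In mTEClo it rose from 2.76, 3.76 and 4.91 CPM to 22.7, 25.6 and 23.6 CPM (log2 change 2.67 with SE 0.27, adjusted p = 2.7e-07), the largest rise of the 44 genes in that subset. In cTEC it rose from 7.93, 9.66 and 4.15 CPM to 34.1, 28.7 and 25.5 CPM (log2 change 2.02 with SE 0.24, adjusted p = 1.01e-06). In both of these subsets every KO library was above every WT library, and the highest Hydin level of all 18 libraries was in KO cTEC pool 4. Both calls were kept in all 11 other settings tried. On CPM summed over the 7 central pair genes, KO cTEC (29.6 to 37.6) accordingly lay above WT cTEC (16.1 to 22.3), although 4 of the 7 fell there (57.1%, against 26.7% of all genes).

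**Figure D2:**
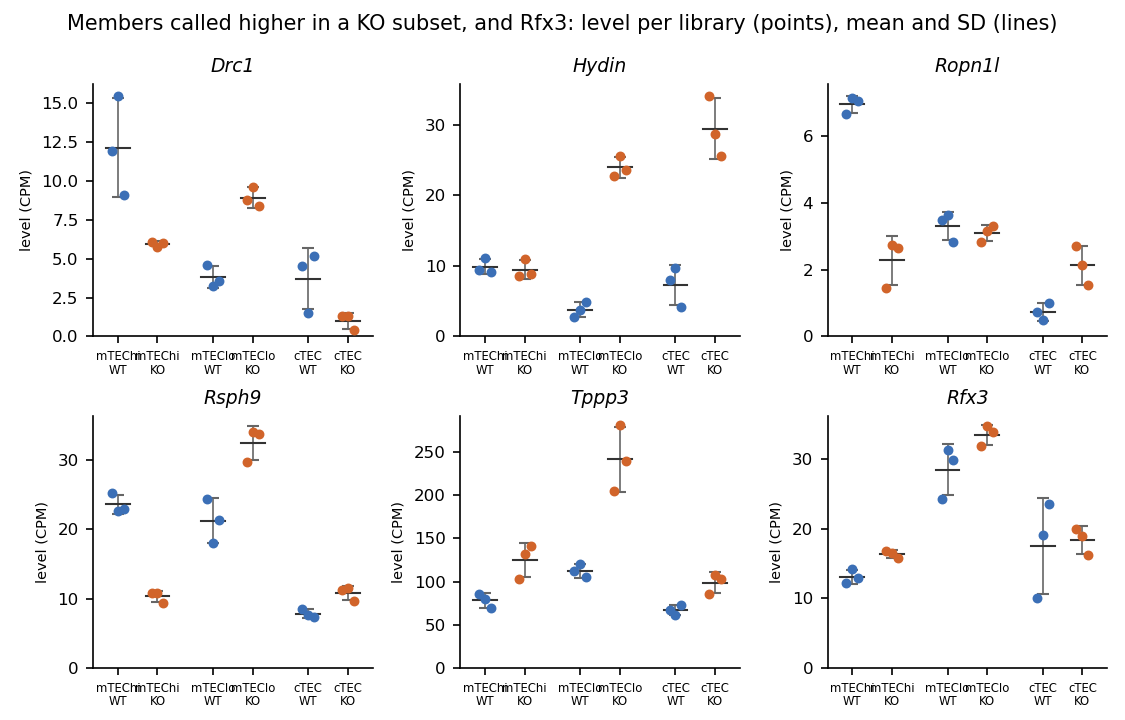
Level (y axis, CPM, starting at 0) of the 5 genes called higher in at least 1 KO subset, and of Rfx3, in the 18 libraries (points, blue WT and orange KO) with group mean and SD (lines). Hydin KO points lie above WT points in mTEClo and cTEC but not in mTEChi, Tppp3 KO points lie above in all 3 subsets, and Drc1 turns from lower in mTEChi and cTEC to higher in mTEClo.

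The 6 genes for tektins and proteins bound inside or on the doublet microtubules gave 5 that fell in mTEChi, 0 in mTEClo and 2 in cTEC. These were 83.3%, 0% and 33.3%, against 19.3%, 15.8% and 26.7% of all genes. Tekt1, a filament protein of the doublets, was at 12.2, 12.1 and 12.6 CPM in WT mTEChi and 2.87, 4.40 and 3.24 CPM in KO mTEChi (log2 change -1.79 with SE 0.64, adjusted p = 0.0352), and at 9.09, 8.29 and 5.503 CPM in WT against 2.37, 2.93 and 2.04 CPM in KO mTEClo (adjusted p = 0.051). Both pairs of groups were apart. In cTEC it was at 3.49, 1.17 and 0 CPM in WT and 0, 0.259 and 0.315 CPM in KO (log2 change -2.84 with SE 0.89, adjusted p = 0.0119), with WT pool 3 at 0, a call lost without WT pool 1 (adjusted p = 0.163). Cfap53, an inner microtubule protein, was at 17.2, 16.5 and 18.3 CPM in WT mTEChi and 4.78, 9.41 and 6.77 CPM in KO mTEChi (log2 change -1.30 with SE 0.35, adjusted p = 0.00714), and at 1.16, 1.33 and 2.82 CPM in WT against 0.330, 0.453 and 0.368 CPM in KO cTEC (log2 change -2.19 with SE 0.45, adjusted p = 0.000495). It did not overlap in either. Cfap53 in mTEClo was at 1.53, 2.98 and 3.12 CPM in WT against 1.49, 2.31 and 1.17 CPM in KO. Cfap126, needed to place basal bodies, was at 7.75, 6.89 and 8.41 CPM in WT against 1.08, 3.19 and 3.24 CPM in KO mTEChi (log2 change -1.60 with SE 0.42, adjusted p = 0.00561). It was at 5.52, 5.31 and 5.65 CPM in WT against 3.45, 4.68 and 5.05 CPM in KO mTEClo and at 3.35, 1.06 and 3.78 CPM in WT against 3.23, 2.395 and 2.84 CPM in KO cTEC, with no call. Tekt4 was called nowhere, at 2.22, 3.92 and 5.56 CPM in WT against 2.15, 1.29 and 1.62 CPM in KO mTEChi, 3.37, 1.42 and 5.35 CPM in WT against 2.37, 4.73 and 3.26 CPM in KO mTEClo and 1.24, 0.318 and 1.76 CPM in WT against 0.264, 0.453 and 0.578 CPM in KO cTEC. Tekt2 and Cfap52 fell in mTEChi (log2 fold change -1.71 and -1.53).

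Cfap43, Cfap44 and Cfap57 belong to the tether and regulators of inner dyneins. Cfap44 was at 4.98, 7.37 and 3.93 CPM in WT against 0.837, 2.13 and 2.21 CPM in KO mTEChi (log2 change -1.65 with SE 0.47, adjusted p = 0.00954), and at 5.82, 2.49 and 10.5 CPM in WT against 1.32, 1.29 and 0.999 CPM in KO cTEC (log2 change -2.38 with SE 0.44, adjusted p = 0.000169). The libraries did not overlap in these subsets, while in mTEClo they did (5.01, 5.96 and 4.46 CPM in WT against 4.60, 6.70 and 5.51 CPM in KO). Its tether partner Cfap43 was highest in WT mTEClo, and fell there from 8.68, 5.70 and 8.03 CPM to 2.57, 3.10 and 2.09 CPM (log2 change -1.53 with SE 0.38, adjusted p = 0.00342). In cTEC it fell from 3.27, 1.38 and 1.86 to 0.528, 0.583 and 0.894 CPM (log2 change -1.65 with SE 0.42, adjusted p = 0.0029), and in mTEChi it was at 2.77, 3.68 and 3.25 CPM in WT against 1.67, 0.987 and 2.65 CPM in KO, apart but not called (adjusted p = 0.0887). Cfap57 overlapped in every subset, at 2.22, 1.78 and 2.71 CPM in WT against 1.55, 0.987 and 1.91 CPM in KO mTEChi, 3.98, 2.46 and 1.04 CPM in WT against 1.55, 1.07 and 1.53 CPM in KO mTEClo and 1.96, 0.212 and 0.692 CPM in WT against 1.06, 0.324 and 0.841 CPM in KO cTEC.

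Of 4 further genes of ciliated cells, 3 fell in mTEChi and in cTEC (75%, against 19.3% and 26.7% of all genes) and Tppp3 rose everywhere. Tppp3, a microtubule-bundling protein that other cells also make, was the most abundant of the 44 genes per length. It rose from 85.8, 80.3 and 68.9 CPM in WT to 103, 132 and 141 CPM in KO mTEChi (log2 change 0.68 with SE 0.14, adjusted p = 0.00103), from 112, 121 and 105 to 205, 281 and 239 CPM in mTEClo (log2 change 1.10 with SE 0.14, adjusted p = 4.4e-06) and from 67.7, 61.1 and 72.5 to 85.1, 108 and 103 CPM in cTEC (log2 change 0.56 with SE 0.14, adjusted p = 0.00232). No pair of groups overlapped. Dynlrb2, a dynein light chain, was at 18.3, 23.6 and 29.96 CPM in WT mTEChi and 0.956, 4.17 and 3.97 CPM in KO mTEChi (log2 change -2.97 with SE 0.60, adjusted p = 0.000851), and at 2.55, 1.01 and 9.80 CPM in WT against 0.330, 0.388 and 0.631 CPM in KO cTEC (log2 change -3.26 with SE 0.71, adjusted p = 0.000793). Its KO libraries were below the WT libraries in every subset, mTEClo included (6.44, 15.3 and 16.2 against 3.38, 5.75 and 5.76 CPM, adjusted p = 0.0689). Tmem212, a membrane protein gene, was highest in WT mTEClo, at 9.40, 11.5 and 11.9 CPM against 2.10, 4.62 and 2.35 CPM in KO (log2 change -1.85 with SE 0.42, adjusted p = 0.00206). In mTEChi it fell from 2.77, 1.78 and 2.85 to 0.239, 0.152 and 0.589 CPM (log2 change -3.01 with SE 0.63, adjusted p = 0.00108), and in cTEC it had 81 reads in WT and 2 in KO, a pooled level 39.1-fold lower (95% counting interval 10.5 to 328). Every KO library of Tmem212 was below every WT library of its subset. Ak7, an adenylate kinase of cilia, was at 6.37, 5.23 and 5.29 CPM in WT against 0.837, 2.13 and 1.47 CPM in KO mTEChi (log2 change -1.88 with SE 0.62, adjusted p = 0.0239) and at 1.60, 0.743 and 2.98 CPM in WT against 0.660, 0.0647 and 0.0526 CPM in KO cTEC (log2 change -2.79 with SE 0.71, adjusted p = 0.00306), without overlap in either. In mTEClo, Ak7 was at 1.12, 2.98 and 2.97 CPM in WT against 1.28, 1.86 and 0.867 CPM in KO.

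Ranges over the 3 libraries are given for the members not yet shown by library. Dnah12 was at 7.46 to 10.2 CPM in WT and 1.03 to 2.87 CPM in KO mTEChi, and at 0.637 to 3.57 CPM in WT and 0.0526 to 0.264 CPM in KO cTEC. Dnah6 overlapped in mTEChi, with 5.69 to 11.6 CPM in WT and 6.45 to 7.89 CPM in KO mTEChi, and was apart in cTEC, with 3.27 to 6.87 CPM in WT and 0.194 to 1.32 CPM in KO cTEC. Spag17 was at 8.20 to 9.49 CPM in WT and 0.717 to 1.97 CPM in KO mTEChi, and at 2.97 to 4.53 CPM in WT and 1.07 to 1.27 CPM in KO mTEClo. All 3 of these genes had their KO cTEC libraries below the WT cTEC libraries. Cfap54 was at 3.56 to 5.15 CPM in WT and 0.911 to 1.32 CPM in KO mTEChi, and Tekt2 at 2.17 to 3.32 CPM in WT and 0.598 to 0.911 CPM in KO mTEChi. Cfap52, an inner microtubule protein, was at 4.87 to 6.09 CPM in WT and 1.62 to 1.97 CPM in KO mTEChi. In mTEClo its order was turned without a call, with 2.07 to 2.66 CPM in WT and 3.87 to 4.94 CPM in KO mTEClo. Of members called in no subset, Rsph4a was at 2.02 to 2.49 CPM in WT and 0.987 to 1.62 CPM in KO mTEChi, and Cfap61 at 1.11 to 2.49 CPM in WT and 0.531 to 1.32 CPM in KO mTEChi.

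Tppp3 made up a large share of the summed level of the genes. The summed level of the 44 genes was 548 to 555 CPM in WT mTEChi and 299 to 342 CPM in KO mTEChi. In mTEClo it was 369 to 398 CPM in WT and 449 to 549.8 CPM in KO, and in cTEC 209 to 308 and 229 to 249 CPM. Without Tppp3, the sum was 469 to 479 CPM in WT and 189.8 to 210.5 CPM in KO mTEChi, 257 to 293 in WT and 244 to 269 CPM in KO mTEClo, and 148 to 236 in WT and 128 to 143 CPM in KO cTEC. The mTEChi groups were thus apart with or without Tppp3, the mTEClo groups were apart (KO higher) only with it, and the cTEC groups were apart (KO lower) only without it.

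**Figure D3:**
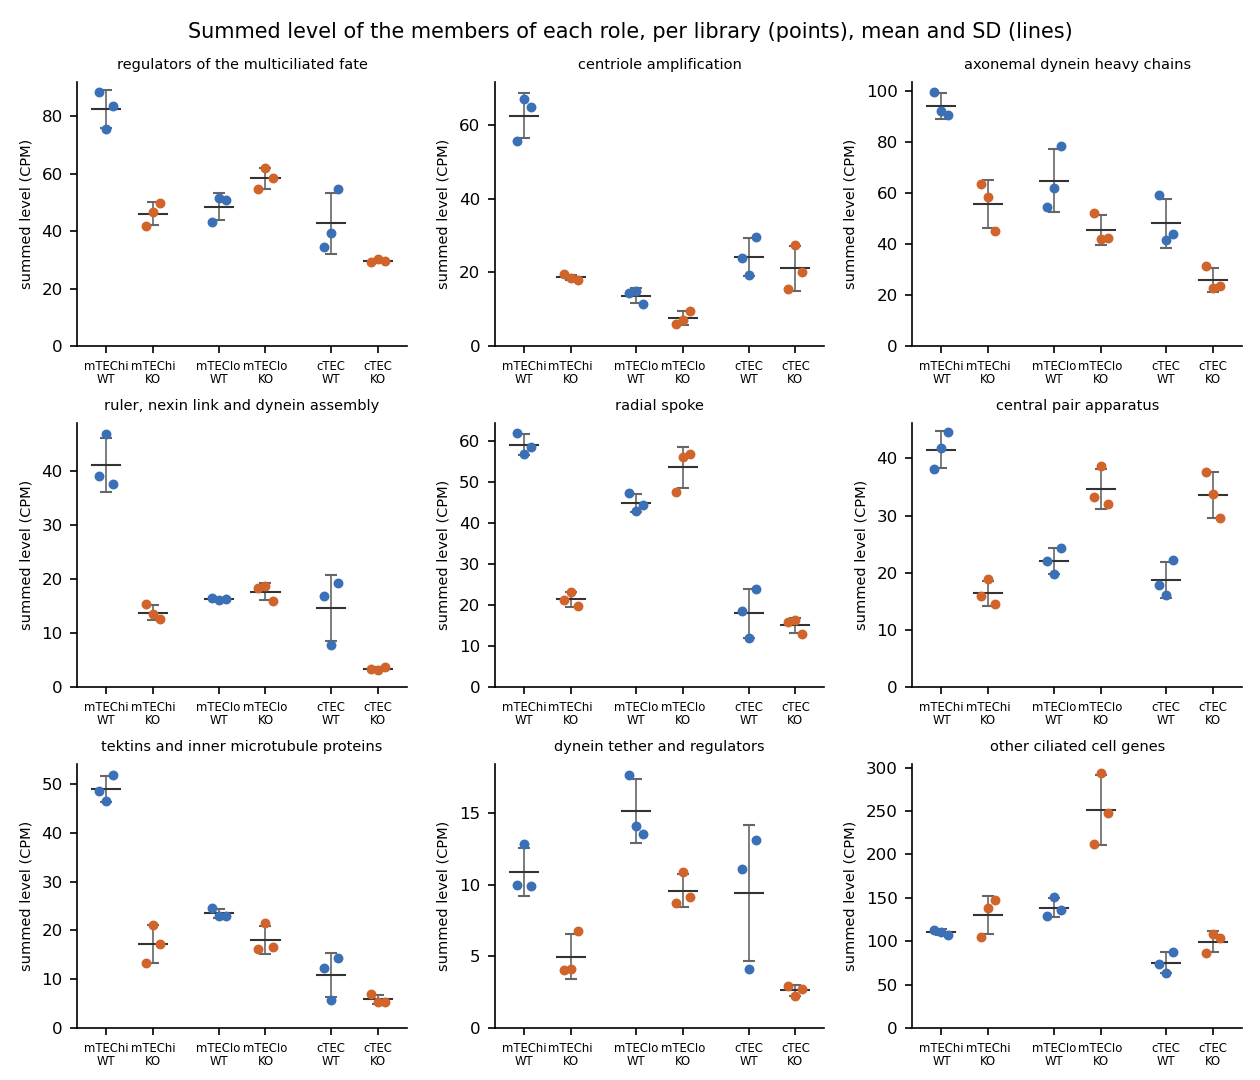
Summed level (y axis, CPM, starting at 0) of the members of each of the 9 roles in the 18 libraries (points, blue WT and orange KO) with group mean and SD (lines). In mTEChi every role except the last, which holds Tppp3, has all KO points below all WT points, while the central pair sum is higher in KO mTEClo and KO cTEC, where Hydin rose.

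The KO change was then compared between subsets, as the difference of the log2 fold changes. For mTEChi minus mTEClo, 8 of the 44 were called (13.5% of all genes), 8 lower and 0 higher (6.78% and 6.72%), and the median over the 44 was -1.10 against -0.07 over all genes. The 8 were Hydin (-2.73), Mcidas (-2.46), Cfap52 (-2.43), Drc1 (-2.25), Foxj1 (-2.01), Rsph1 (-1.91), Rsph9 (-1.79) and Ropn1l (-1.51), in log2 units. Cfap52 lost this call without any 1 of the 12 libraries, Ropn1l in 11 cases and Foxj1 in 9 (adjusted p from 0.0564 to 0.12). In those cases the difference was -2.52 to -2.33 in Cfap52, -1.61 to -1.27 in Ropn1l and -2.21 to -1.56 in Foxj1. For mTEClo minus cTEC, 15 were called (26% of all genes), 13 higher and 2 lower (16.4% and 9.54%), with a median of 1.00 against 0.05. Among these, Dnah5 differed by 3.68 (adjusted p = 0.00233), Drc1 by 3.11 (0.000415), Mcidas by 2.87 (0.00254) and Rsph1 by 2.63 (0.000614), and 7 of the 15 lost the call without some 1 library. With the mouse pool as a block, Ropn1l was no longer called for mTEChi minus mTEClo (difference -1.52, adjusted p = 0.0653), nor were Ccdc40 (1.95, adjusted p = 0.0681), Cfap206 (3.09, adjusted p = 0.0683) and Cfap54 (1.53, adjusted p = 0.0516) for mTEClo minus cTEC, where the differences without the block were 2.12, 3.37 and 1.60. These differences share the mTEClo libraries with the first set. For mTEChi minus cTEC, 8 were called (31.5% of all genes), 3 higher and 5 lower (18.3% and 13.2%), with a median of 0.23 against 0.01. The 5 lower were Ropn1l, Hydin, Ccno, Rsph9 and Cfap126, and the 3 higher Spag16, Dnah5 and Dnah6. The call of Cfap126 (-1.66) was lost in 6 of 12 cases with 1 library left out (difference -1.65 to -1.26, adjusted p 0.0503 to 0.0885) and with only these groups fitted (-1.53, adjusted p = 0.0945). Dnah5 (2.61) lost it in 4 cases (1.87 to 2.27, adjusted p 0.0699 to 0.0908). Spag16 lost it in 9 cases (adjusted p 0.0503 to 0.0826), with DESeq2 (0.0553) and with the pool as a block (0.0594).

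In cTEC the WT libraries themselves were uneven. Of the 40 genes with at least 30 reads in WT cTEC, pool 2 was lowest in 28 and pool 3 highest in 25. Aire was at 45.4, 28.3 and 75.8 CPM in WT cTEC pools 1, 2 and 3, the same order as the summed level of the 44 genes (267, 209 and 308 CPM), against 22.4, 17.9 and 11.7 CPM in KO cTEC. Ccl21a, a marker of mTEClo, was at 662, 942 and 638 CPM in WT cTEC and 356, 278 and 111 CPM in KO cTEC. In mTEClo it was at 1528 to 1576 CPM in WT and at 303, 691 and 549 CPM in KO, so in KO pool 4 the cTEC library was above the mTEClo library. The part of medullary cells in the cTEC libraries was not tested. With any 1 of the 6 cTEC libraries left out, 22 to 27 of the 44 genes fell in KO cTEC.

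Other cilium genes were read from lists outside the 44. Of 72 further motile axoneme genes tested, 39 fell and 1 rose in mTEChi, 15 fell and 4 rose in mTEClo, and 31 fell and 3 rose in cTEC, with median log2 fold changes of -1.31, -0.30 and -1.08. The share that fell was 54.2%, 20.8% and 43.1%, against 19.3%, 15.8% and 26.7% of all genes, and the share that rose 1.39%, 5.56% and 4.17%, against 17.1%, 18.9% and 22.3%. The 3 with the smallest adjusted p in mTEChi were Lrriq1 (-3.12, SE 0.38, adjusted p = 4.95e-06), Cfap45, an inner microtubule protein (-1.34, SE 0.20, adjusted p = 6.01e-05), and Pifo (-1.63, SE 0.26, adjusted p = 0.000108), all lower. Genes of the primary cilium and of intraflagellar transport, which non-motile cilia use as well, were called in both directions. Of 44 tested, 7 rose and 8 fell in mTEChi, 7 rose and 5 fell in mTEClo, and 12 rose and 6 fell in cTEC, with medians of -0.09, 0.18 and 0.12. In mTEChi the shares, 15.9% higher and 18.2% lower, were near those of all genes. In mTEClo they were 15.9% and 11.4%, and in cTEC 27.3% and 13.6%. Bbs4 and Bbs9, subunits of the BBSome (0.98, SE 0.13, adjusted p = 1.05e-05 and 0.94, SE 0.16, adjusted p = 0.00014), and Ift122, of the transport train (1.05, SE 0.18, adjusted p = 0.0002), rose in mTEChi. Of 16 other genes of multiciliogenesis, 6 fell and 2 rose in mTEChi (37.5% and 12.5%). Ccp110, a cap protein of centrioles (-1.13, SE 0.20, adjusted p = 0.000218), and Trp73, which encodes the p53 family regulator TAp73 (-1.35, SE 0.25, adjusted p = 0.000466), fell, and Myb, a transcription factor of early multiciliated cells that cycling cells also express, rose (0.77, SE 0.15, adjusted p = 0.000602). Of 13 genes tested from 22 of the sperm flagellum and spermatids, 3 fell and 1 rose in mTEChi (23.1% and 7.69%), 0 were called in mTEClo and 3 fell in cTEC (23.1%).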

How the data were processed

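RNA-seq of sorted thymic epithelial cells gave 18 libraries, 3 in each of 6 groups. Per the labels' protocols, cDNA was made with the SMART-Seq v4 kit and tagmented with Nextera XT for 75 base paired-end reads, and these kits do not record strand. The deposited values were raw counts per gene, whole numbers with no normalization, which the authors made with featureCounts on mm10, per the submitters' processing notes. The aligner, the annotation and the counting settings: not given in the sources used here. Of the 27179 genes, 1312 had no symbol (0.435% to 0.636% of counts per library). These entered the library totals and tests under their identifiers. Gene coordinates, overlaps and promoters were from RefSeq on GRCm38.p6. Overlaps were those of whole gene spans, introns included, and overlap of exons was not tested. Further members overlapped other counted genes, among them Dnah11 with Cdca7l over 731 bases and Rsph1 with Ubash3a over 4663 bases.

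The counts were fitted with edgeR 4.0.16 (R 4.3.3): filterByExpr with a minimum count of 10 (19364 genes left), TMM scaling, 1 group-mean fit of all 18 libraries (12 residual degrees of freedom), glmQLFit and glmQLFTest, and Benjamini-Hochberg adjustment over all genes tested with a threshold of 0.05. Single-gene adjusted p-values in the report are from this test, except where the text names another fit, the pool as a block or a left-out library. CPM were scaled to TMM library sizes, and RPKM were CPM per kilobase of the gene length in the files. A gene was called higher or lower where its adjusted p passed the threshold. The fit was tested on simulated data with the same dispersion for every gene. That checks the code and does not show how the fit performs for members with few reads or a wide spread. Where a group had 0 reads, a bound on the fold was computed with 3 reads for the whole group, and floors and counting intervals cover counting error only, since reads carried no molecular identifiers.

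The 44 genes and the other gene lists were chosen with earlier results of these data known. Levels in every library are given for all regulators and centriole genes and for up to 4 genes with the highest mean RPKM in each other role, with the called genes of largest and smallest change and those against the main direction. For other lists up to 3 genes with the smallest adjusted p in mTEChi are named. Lists matched 255 of 255 genes, 5 through a synonym. Subsets of 1 pool came from the same mice, so a fit with the pool as a block was an alternative for comparisons between subsets (correlations of same-pool deviations were -0.03 to 0.38), whereas WT and KO pools were different mice. The other alternatives were RLE and no scaling, no filter, DESeq2 1.42.0, fits of only the groups compared, a fold of at least 2, and leaving out each library. Within a group the libraries are separate pools, so p-values of KO against WT rest on the spread between pools, estimated over all 6 groups together. For comparisons between subsets, and of the KO change between subsets, the main fit did not use that libraries of 1 pool came from the same mice.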

Additional observations from a re-analysis of the deposited data

Results flagged for a closer look

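The KO change of a gene differed between subsets, by a test of the difference of the log2 fold changes (edgeR quasi-likelihood, Benjamini-Hochberg adjusted p under 0.05 over all genes tested), for 31 combinations of a ciliated cell gene and a pair of subsets. Values below are that difference in log2 units.

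For mTEChi minus mTEClo the change was lower in Hydin (-2.73), Mcidas (-2.46), Cfap52 (-2.43), Drc1 (-2.25), Foxj1 (-2.01), Rsph1 (-1.91), Rsph9 (-1.79) and Ropn1l (-1.51). Mcidas and Foxj1, the regulators among them, fell in KO mTEChi and were not called in mTEClo. For mTEChi minus cTEC it was lower in Ropn1l (-3.11), Hydin (-2.08), Ccno (-1.70), Cfap126 (-1.66) and Rsph9 (-1.66), and higher in Spag16 (3.66), Dnah5 (2.61) and Dnah6 (2.24). Ropn1l and Rsph9 fell in KO mTEChi and rose in KO cTEC.

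For mTEClo minus cTEC it was lower in Ropn1l (-1.60) and Ccno (-0.89). It was higher in Spag16 (5.62), Dnah5 (3.68), Cfap206 (3.37), Tmem212 (3.13), Drc1 (3.11), Mcidas (2.87), Rsph1 (2.63), Cfap44 (2.51), Zmynd10 (2.45), Foxj1 (2.33), Ccdc40 (2.12), Cfap54 (1.60) and Tppp3 (0.55). Drc1 rose in KO mTEClo and fell in KO cTEC, and the library levels of both comparisons did not overlap. The values for Spag16 against cTEC rest on a group with 0 reads, so their size depends on the fit and is no bound, and those for Tmem212 rest on 2 reads in KO cTEC.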

How the results depend on the processing

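Of the members called in KO against WT, 20 of 28 in mTEChi, 7 of 10 in mTEClo and 23 of 29 in cTEC kept their call and direction under every alternative that gave them a value, a fold of at least 2 aside. That was 11 alternatives, but 10 for 1 of the 7 (Cfap46) and 2 of the 23 (Cfap206 and Spag16), which gave no value with only the groups compared. Asking for a fold of at least 2 left 0 higher members in mTEChi (1 without it) and 2 in cTEC (4). In mTEClo, 10 fell by DESeq2 and 13 with only the groups compared, against 6. With only the groups compared, the counts became 25 higher (16) in WT mTEChi against mTEClo, 8 higher (14) and 1 lower (3) in WT mTEClo against cTEC, and 17 lower (11) in KO mTEChi against mTEClo. WT mTEChi against cTEC gave 2 lower (1) with no filter. The KO change of mTEClo minus cTEC gave 1 lower (2) with no scaling, with no filter, with only the groups compared and at a fold of 2. With 1 library left out, WT mTEChi against cTEC gave 1 to 2 lower, WT mTEClo against cTEC 1 to 3 lower, mTEChi minus mTEClo 5 to 6 lower (8 with all), mTEChi minus cTEC 1 to 6 higher (3) and mTEClo minus cTEC 0 to 2 lower. The lowest of these counts came without mTEChi WT pool 1 or 3 or KO pool 4, or mTEClo WT pool 1 or 2 or KO pool 5 (mTEChi minus mTEClo), without cTEC WT pool 1, cTEC KO pool 5 or 6 or mTEChi KO pool 4 (mTEChi minus cTEC, 6 being without cTEC WT pool 2), and without mTEClo WT pool 2 or KO pool 4 (mTEClo minus cTEC). The cause was not tested.

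Cdc20b in cTEC turned from a log2 fold change of -3.97 to 1.59 without WT pool 1, which held all its WT reads, and ranged from -5.55 to 1.59 with 1 library left out. The log2 ratio of the summed level in KO over WT was -0.77, 0.35 and -0.13 in mTEChi, mTEClo and cTEC. It was -1.12, -0.22 and -0.65 as the mean of log2(CPM + 1), and -1.25, -0.11 and -0.47 without Tppp3, an alternative chosen after the data were seen, so its direction in mTEClo depends on Tppp3. No scaling moved the median over all genes in KO against WT cTEC to -0.14.

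With the mouse pool as a block, called members changed from 17 to 19 in WT mTEClo against cTEC and from 15 to 13 for mTEClo minus cTEC. The replicate block moved no count by over 1.5 times, and Spag16 lost its call for mTEChi minus cTEC (3.54, adjusted p = 0.0594). No paired analysis was possible for KO against WT because their pools were different mice. Members at a few reads in cTEC limit what the depth can show there.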

Other observations

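In KO mTEClo, pool 5 was the highest library for 23 of the 41 members with at least 30 reads, and pool 6 the lowest for 20. Among genes outside the ciliated cell list, the thymocyte gene Cd8a was at 34.4 to 60.5 CPM in KO cTEC and 4.69 to 13.2 CPM in WT cTEC. The cortical gene Psmb11, a thymoproteasome subunit, was at 79.7 to 105 CPM in KO mTEChi and 19.8 to 22.2 CPM in WT mTEChi. Psmb11 and Prss16, a cortical protease gene, were higher in every KO library than in every WT library of each of the 3 subsets.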
